A study of Rattus norvegicus with 17 samples.

Results

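Serping1 and 3 genes of the complement cascade were followed across the hippocampus of single rats, 4 of the 26402 genes in the deposited table. The members were Serping1 (ENSRNOG00000007457), C1qa (ENSRNOG00000012807), C1qb (ENSRNOG00000012804) and C3 (ENSRNOG00000046834), taken by their Ensembl identifiers. Serping1 was chosen by its unadjusted p-value in the study's own comparison of the groups, so its difference between the groups is described here without a test. The other 3 genes were added for their place in the cascade. The study pairs the Serping1 identifier with its name. The names C1qa, C1qb and C3 were assigned for this work, and the gene table used here holds 0 of the deposited identifiers, so these 3 names could not be checked and the chain behind each C1q identifier is uncertain. ENSRNOG00000012804, called C1qb here, may be another chain of C1q.

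Left hippocampal tissue (CA1/CA2, without the dentate gyrus) of virgin male Fischer-344 rats aged 12 months was sequenced, 1 library per rat. In the vehicle group, 10 rats were injected subcutaneously with polyethylene glycol alone. In the ENZ group, the 7 rats with deposited data received Enzastaurin, an inhibitor selective for protein kinase C-beta, at 25 mg/kg in polyethylene glycol. The paper describes a larger ENZ group, so not every treated rat is included here. Both groups were injected daily for 3 days, swam the Morris maze on those days and were killed after the last probe trial, so maze training was shared by controls and treated rats. Directions are ENZ against vehicle as the sample labels assign the rats. The study's own list gives Serping1 and Hba2 the opposite sign, and whether that list was written as vehicle against ENZ or the labels are exchanged could not be settled from the files. Values are normalized counts, which are reads divided by 1 size factor per rat. Rat G1_80 of the vehicle group had 33422 reads on genes and the other 16 rats had 2716777 to 20731523. A single read in rat G1_80 was worth 103.4 normalized counts, so the 16 rats without it (9 vehicle, 7 ENZ) are given first and each result is repeated with it.

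Complement is a cascade of blood and tissue proteins that tags cells, debris and, in brain, synapses for removal. C1q, assembled from A, B and C chains, recognises the target and starts the classical pathway through the proteases C1r and C1s. C3 is the central component, whose cleavage deposits the tag, and Serping1 encodes C1 inhibitor, the serpin that blocks C1r and C1s. In brain, microglia are the main source of C1q, while C1 inhibitor is made by other cells, among them those of the meninges.

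The sequences ahead of the 3 complement genes are shown because the identifiers called C1qa and C1qb moved together across rats, as described with the correlations. They are the 250 bases before each RefSeq start in the build GRCr8, on the minus strand, matched by symbol and not by identifier (the C1qb sequence does not belong to ENSRNOG00000012804 if that is another chain), at chr5:154419934-154420183 for C1qa, chr5:154407828-154408077 for C1qb and chr9:2201340-2201589 for C3. No entry was given for Serping1. Capitals mark matches to 4 motifs searched on both strands, the ETS-family core GGAAGT, the C/EBP motif TTGCNNAA, the STAT motif TTCNNNGAA and the interferon-stimulated response element.
C1qa: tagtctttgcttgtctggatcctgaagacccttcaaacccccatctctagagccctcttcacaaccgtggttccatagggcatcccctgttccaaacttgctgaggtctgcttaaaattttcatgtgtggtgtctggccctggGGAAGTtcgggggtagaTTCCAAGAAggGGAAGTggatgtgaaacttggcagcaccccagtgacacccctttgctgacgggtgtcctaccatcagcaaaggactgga
C1qb: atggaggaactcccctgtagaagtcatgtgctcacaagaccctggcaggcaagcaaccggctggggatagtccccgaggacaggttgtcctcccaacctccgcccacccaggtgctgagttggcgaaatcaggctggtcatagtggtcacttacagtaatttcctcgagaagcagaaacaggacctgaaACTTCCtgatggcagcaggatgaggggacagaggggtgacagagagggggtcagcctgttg
C3: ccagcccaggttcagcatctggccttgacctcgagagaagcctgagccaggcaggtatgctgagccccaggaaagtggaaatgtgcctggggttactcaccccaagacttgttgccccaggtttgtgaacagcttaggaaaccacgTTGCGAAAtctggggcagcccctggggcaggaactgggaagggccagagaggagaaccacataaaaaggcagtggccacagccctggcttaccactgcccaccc
The ETS-family core, which the myeloid factor PU.1 can bind, was found 2 times before C1qa, the nearer at positions -79 to -74 counted from the start. It was found 1 time before C1qb, on the other strand at -61 to -56, and 0 times before C3. Of 33469 promoters of this length, 19.22% held it. The STAT motif stood once before C1qa, at -90 to -82, and in 7.67% of all promoters. The C/EBP motif stood once before C3, at -104 to -97, and in 9.22% of all promoters. The interferon element was in none of the 3, and in 3.41% of all promoters. These are matches of letters, and binding was not measured.

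Serping1 was a low-count gene that stood higher in the rats labelled ENZ. In the 9 vehicle rats it ran from 9.78 to 22.9 normalized counts with a median of 20.4, and in the 7 ENZ rats from 20.9 to 47.8 with a median of 31.8. The groups overlapped, since 2 ENZ rats (G2_152 at 20.9 and G2_71 at 21.3) lay within the vehicle range, while the other 5 were above every vehicle rat. Vehicle rats averaged 18.5 ± 4.81 (SD, n = 9) and ENZ rats 30.7 ± 9.41 (SD, n = 7). On the log2(normalized count + 1) scale the difference was 0.70 with a standard error of 0.20, larger in size than that of 99.81% of the 13853 genes fitted, as its choice by this contrast would give. Rat G2_62 was the highest of all at 47.8, and without it the difference was 0.58.

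The reads behind Serping1 were few. They ranged from 5 in vehicle rat G1_134 to 86 in vehicle rat G1_8, and 16 to 57 in the ENZ rats. The level of rat G1_134, the lowest of the 16 at 9.78, had an exact Poisson 95% interval of 3.18 to 22.8 normalized counts, which covers counting error only. That interval reached nearly to the highest vehicle rat. Counting error alone came to 61.6% of the squared coefficient of variation of Serping1 in the vehicle group and 32.7% in the ENZ group. In rat G1_80 there were 0 reads, with an exact Poisson 95% interval of up to 381.3 normalized counts, above the level of every other rat. With that rat counted at 0 the difference became 1.12 (standard error 0.54), while DESeq2 on the reads of the same 17 rats gave 0.67 (standard error 0.27). Over 13 rats, the set inferred to lie behind the study's list from the mean counts it prints, the limma difference was 0.67 (standard error 0.20).

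C1qa, C1qb and C3 did not pass the test. The identifier called C1qa, whose chain could not be checked, ran from 346.4 to 548.5 normalized counts in vehicle (median 433.0). In ENZ it ran from 338.9 to 478.1 (median 418.0). The ENZ rats lay within or just under the vehicle range. Vehicle rats averaged 437.5 ± 75.2 (SD, n = 9) and ENZ rats 411.9 ± 47.8 (SD, n = 7). The log2 fold change was -0.076 (standard error 0.10, 95% interval -0.29 to 0.13, adjusted p = 0.99979 by limma), and a two-sided exact permutation of the 16 rats, with 11440 ways to divide them, gave p = 0.493.

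The identifier called C1qb ran from 161.3 to 256.2 in vehicle (median 218.2). In ENZ it ran from 187.5 to 239.4 (median 209.5), so every ENZ rat lay inside the vehicle range. Vehicle rats averaged 214.4 ± 32.4 (SD, n = 9) and ENZ rats 210.7 ± 17.2 (SD, n = 7). The log2 fold change was -0.014 (standard error 0.089, 95% interval -0.20 to 0.17, adjusted p = 0.99979 by limma, exact permutation p = 0.882).

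C3, which carries the cascade forward from either start, ran from 307.6 to 537.4 in vehicle (median 396.4) and from 337.8 to 462.0 in ENZ (median 363.8). Every ENZ rat again lay inside the vehicle range. Vehicle rats averaged 408.4 ± 71.6 (SD, n = 9) and ENZ rats 383.6 ± 46.9 (SD, n = 7). On the log2 scale C3 differed by -0.080 (standard error 0.10, 95% interval -0.29 to 0.13, adjusted p = 0.99979 by limma, exact permutation p = 0.482).

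Of these 3 genes 0 passed an adjusted p of 0.05 by limma and 0 an unadjusted p of 0.05. Among all 13853 genes, 0 (0%) passed the first and 324 (2.34%) the second. The edgeR and DESeq2 tests on recovered reads also called 0 genes, with 338 and 309 at an unadjusted p under 0.05. The median log2 fold change of the 3 genes was -0.076, against -0.0043 over all genes. The 95% intervals reach down to -0.29 and up to 0.17 on the log2 scale and do not show that levels were equal.

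**Figure D1:**
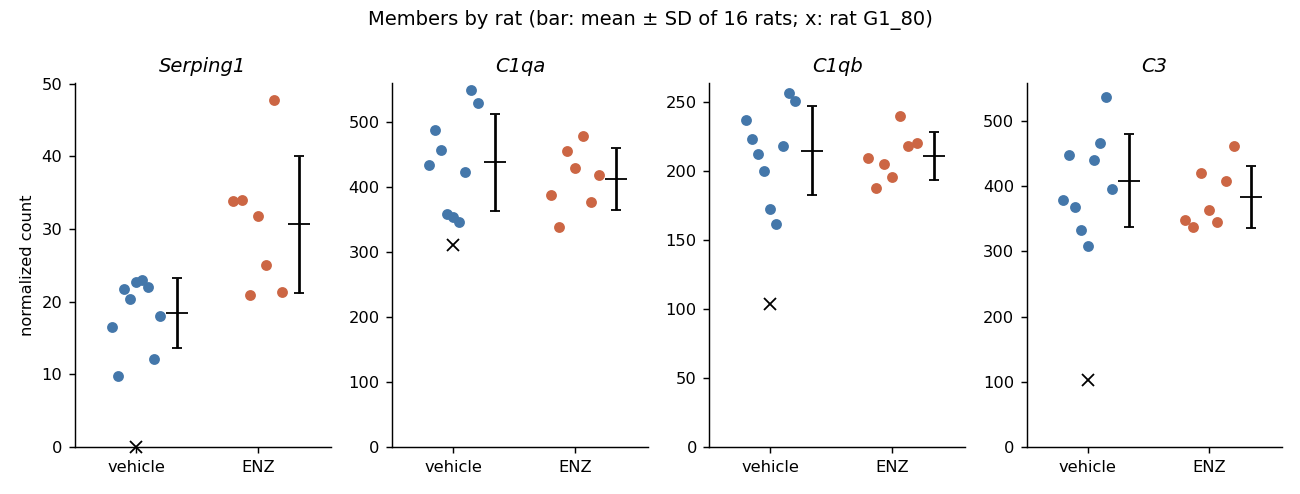
Normalized counts (vertical axes, from 0) of each gene in each rat by treatment, with the mean and SD of the 16 rats beside the points and rat G1_80 as a cross. Serping1 lay at 20.9 to 47.8 in ENZ and 9.78 to 22.9 in vehicle, while the ENZ points of C1qa, C1qb and C3 fell among the vehicle points.

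Rat G1_80 had 3 reads on C1qa, 1 on C1qb and 1 on C3, or 310.1, 103.4 and 103.4 normalized counts. The exact Poisson interval for its single C3 read ran from 2.62 to 575.9 normalized counts, which spans every other rat. With it in the fit the log2 fold change was -0.029 for C1qa, 0.089 for C1qb and 0.12 for C3 (adjusted p = 0.903, 0.792 and 0.819 by limma). The sign of C1qb and C3 thus turned with 1 shallow library in the limma fit. DESeq2 on the reads of the same 17 rats kept it, at -0.078 for C1qa, -0.011 for C1qb and -0.077 for C3. Over all 17 rats 0 of 13844 genes passed by limma and 38 (0.274%) had an unadjusted p under 0.05, none of them C1qa, C1qb or C3. Over the 13 rats the values were -0.10, -0.045 and -0.084 (adjusted p = 0.99988 for each by limma), and 261 of 13883 genes (1.88%) had an unadjusted p under 0.05, again none of the 3.

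**Figure D2:**
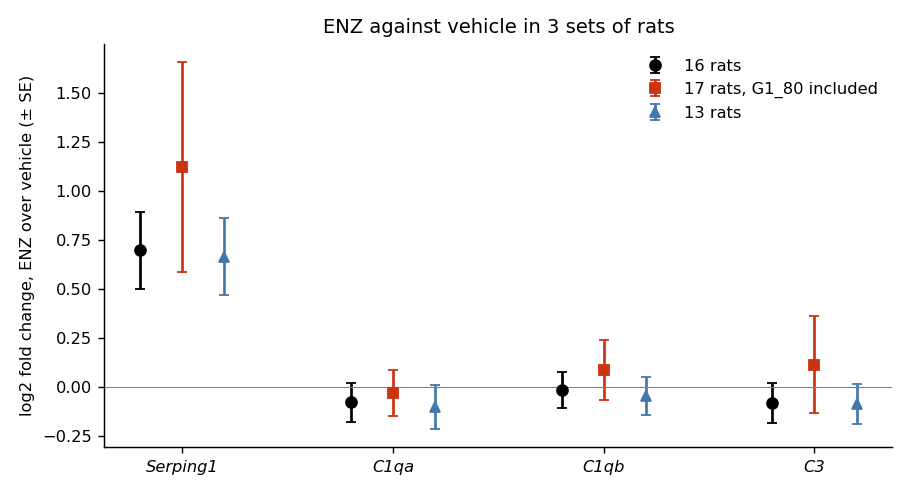
Log2 fold change of ENZ over vehicle with its standard error for each gene, in the 16 rats, in all 17 with G1_80 and in the 13 rats inferred to lie behind the study's list. Serping1 lay at 0.70, 1.12 and 0.67, while C1qb and C3 crossed 0 once G1_80 was included in these limma fits.

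Whether the complement genes followed Serping1 from animal to animal was asked after subtracting each group's mean log2 value, which takes out the contrast that chose Serping1. They did not rise with it. C1qa was lower in rats where Serping1 was higher, with Pearson r = -0.66 (n = 16, two-sided permutation within groups, p = 0.00664, adjusted over 6 pairs of genes 0.0199) and Spearman rho = -0.77 (permutation p = 0.00134, adjusted 0.00402). Among vehicle rats, G1_134 and G1_89 had the lowest Serping1 (9.78 and 12.1) with C1qa at 487.0 and 548.5, and G1_53 the highest (22.9) with C1qa at 346.4. Among ENZ rats, G2_152 and G2_71 had the lowest Serping1 (20.9 and 21.3) with C1qa at 455.2 and 418.0, and G2_62 the highest (47.8) with C1qa at 376.8.

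The 2 rats farthest from the median of Serping1 were G1_134 and G1_89, and without both the r with C1qa was -0.55 (permutation p = 0.0251). Within the 9 vehicle rats r was -0.68 (exact permutation p = 0.0436, adjusted 0.131) and rho -0.82 (exact permutation p = 0.0108, adjusted 0.0215). Within the 7 ENZ rats r was -0.66 (exact permutation p = 0.102, adjusted 0.470) and rho -0.79 (exact permutation p = 0.0480, adjusted 0.288). The direction was thus shared by both groups, although neither passed the adjusted threshold by r alone. Without rat G1_89 the r of the other 15 was -0.60 and its adjusted permutation p 0.0532, while rho was -0.71 (adjusted permutation p = 0.0136). Without centring, over the 16 rats pooled, r was -0.61 (permutation p = 0.0117).

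The values of C1qb and C3 also ran against Serping1, less firmly. For C1qb r was -0.48 (n = 16, permutation p = 0.0668, adjusted 0.102) and rho -0.59 (permutation p = 0.0233, adjusted 0.0467), and without the 2 farthest rats r was -0.36 (permutation p = 0.102). The adjusted permutation p of that rho stayed at 0.0467 with either other pseudocount. It was 0.0603 with TMM, 0.0747 with quantile normalization and 0.106 over the 13 inferred rats. When single rats were left out it ran from 0.0114 (without G2_62) to 0.135 (without G1_89). Within vehicle the r of C1qb was -0.60 and within ENZ -0.23 (exact permutation p = 0.0762 and 0.628). For C3 r was -0.47 (permutation p = 0.0736, adjusted 0.102) and rho -0.39 (permutation p = 0.149, adjusted 0.149). Without the 2 farthest rats the r of C3 was -0.21 (permutation p = 0.458), so that value leaned on those rats. Within vehicle its r was -0.53 and within ENZ -0.38 (exact permutation p = 0.146 and 0.398). Leaving out single rats moved the r of C3 between -0.61 (without G2_62) and -0.35 (without G1_89). The same 2 rats set the limits for C1qb, at -0.58 and -0.39.

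**Figure D3:**
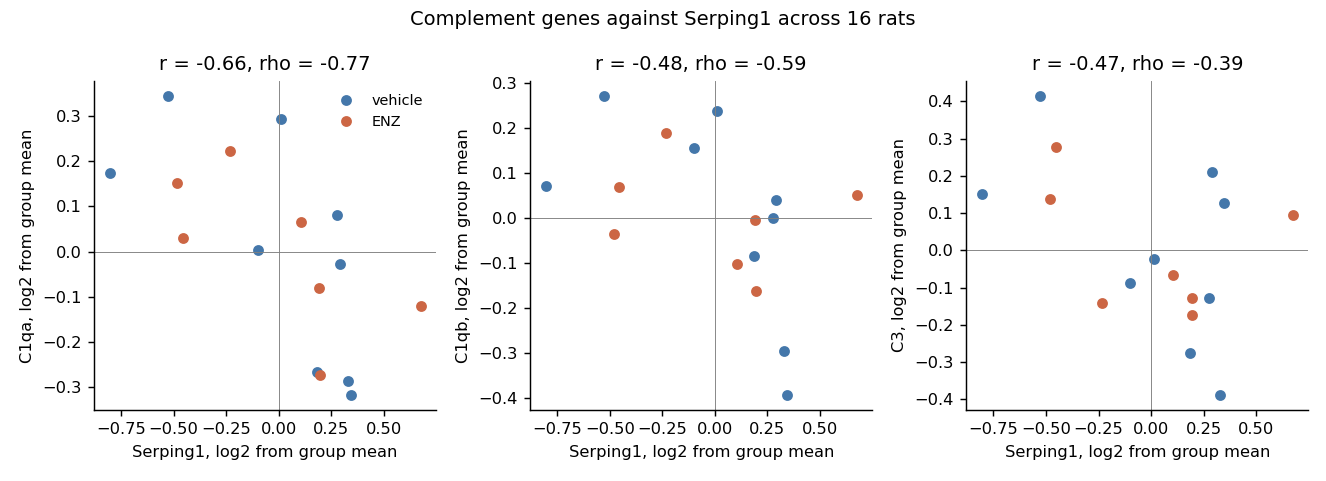
Log2 value of C1qa, C1qb and C3 (vertical axes) against Serping1 (horizontal axes), each as the difference from the mean of its treatment group, 1 point per rat of the 16. The points slope downward for C1qa (r = -0.66) and are looser for C1qb (r = -0.48) and C3 (r = -0.47).

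With rat G1_80 kept, these relations turned. The r with Serping1 became 0.24 for C1qa, 0.66 for C1qb and 0.78 for C3 (n = 17, permutation p = 0.511, 0.0973 and 0.0962). That rat had 0, 3, 1 and 1 reads on the 4 genes. Without it and G2_152, the 2 rats then farthest from the median of Serping1, the values were -0.64, -0.53 and -0.44. The ranks were moved less, to rho of -0.30, -0.069 and 0.064 (permutation p = 0.236, 0.802 and 0.820). Over the 13 inferred rats, which lack G1_80, the r with C1qa was -0.65 (permutation p = 0.0133, adjusted 0.0398).

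Depth moved with Serping1 in ways that differed between the groups. Among the 9 vehicle rats, G1_134 had the fewest reads (2716777) and the lowest Serping1 (9.78). Vehicle rat G1_8 had the most reads (20731523), with Serping1 at 22.0. Among the 7 ENZ rats, G2_62 had the fewest reads (3880391) and the highest Serping1 (47.8). ENZ rat G2_71 had the most reads (11531705), with Serping1 at 21.3. Over the 16 rats, centred by group, the log10 of total reads had r = 0.40 with Serping1, -0.27 with C1qa, -0.21 with C1qb and -0.072 with C3. With log10 reads taken out by regression, at the same slope in both groups, the r of Serping1 and C1qa was -0.63 (permutation p = 0.00727, adjusted 0.0218). For C1qb it was -0.44 (permutation p = 0.059, adjusted 0.0886) and for C3 -0.48 (permutation p = 0.0404, adjusted 0.0808). A slope that differed between the groups is not taken out in this way, and depth within each group was not tested. The second principal component of the 16 rats held 15.2% of the variance over all genes. Centred by group, it had r = 0.52 with Serping1, -0.59 with C1qa, -0.47 with C1qb and -0.17 with C3. The part of that component in the relations of Serping1 was not tested. The first component (20% of the variance) had r = 0.030 with Serping1, -0.29 with C1qa, -0.54 with C1qb and -0.60 with C3. With that component taken out by regression, the r of Serping1 was -0.68 with C1qa, -0.55 with C1qb and -0.57 with C3. The adjusted permutation p was 0.0138 for C1qa and 0.0528 for each of C1qb and C3. The first component was nearly unrelated to Serping1, so taking it out could hardly weaken these r and is no check on them. Hba2 (ENSRNOG00000047321), an alpha-globin gene of red blood cells with near-identical copies, was taken as a measure of blood in the tissue. Its level was 404.7 ± 164.9 (SD, n = 9) in vehicle rats and 297.3 ± 45.1 (SD, n = 7) in ENZ rats, and it too was chosen by the study's contrast. Vehicle rat G1_44 was highest at 799.8, and without it the log2 difference moved from -0.37 to -0.23. Rat G1_8 was lowest of the 9 vehicle rats at 191.3, and without it the difference was -0.49. Over the 13 inferred rats, which lack both, it was -0.33. Centred by group, Hba2 had r = -0.049 with Serping1, -0.17 with C1qa, -0.24 with C1qb and -0.22 with C3. Markers of other cell types could not be matched to identifiers and were not analysed here. In tissue RNA, fewer cells of a type and less RNA per cell cannot be told apart.

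The 2 C1q genes followed each other closely. C1qa and C1qb had r = 0.83 (n = 16, permutation p = 0.00033, adjusted 0.00198) and rho = 0.79 (permutation p = 0.00099, adjusted 0.00402), and r was 0.76 without the 2 rats farthest in C1qa, G1_53 and G1_89 (permutation p = 0.00331). The rats G1_89 and G1_98 were highest in both, at 548.5 and 529.6 for C1qa and 256.2 and 250.2 for C1qb, and G1_53 was lowest in vehicle in both, at 346.4 and 161.3. Within vehicle r was 0.90 (exact permutation p = 0.000863) and within ENZ 0.59 (exact permutation p = 0.157). The ENZ value rested on G2_125, lowest of its group in both genes (338.9 and 187.5), and G2_26, highest in both (478.1 and 239.4), and was no longer positive over the 5 rats without them. The spread of C1qb was narrow in ENZ, where counting error came to 67.4% of its squared coefficient of variation, against 15.8% in vehicle.

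Within a rat, C1qa stood at 2.04 ± 0.15 (SD, n = 9) times the normalized count of C1qb in vehicle and 1.96 ± 0.19 (SD, n = 7) times in ENZ. This ratio is not corrected for gene length. It ran from 1.73 in ENZ rat G2_62 to 2.22 in ENZ rat G2_152, and all 9 vehicle rats lay between those 2.

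C3 was less tied to the C1q genes. Its r was 0.49 with C1qa (n = 16, permutation p = 0.0847, adjusted 0.102) and 0.40 with C1qb (permutation p = 0.188, adjusted 0.188), and its rho was 0.42 and 0.43 (permutation p = 0.129 and 0.116, adjusted 0.149 for both). Vehicle rat G1_53, lowest of its group for both C1q genes, had C3 at 440.2, above the vehicle median of 396.4. Without that rat the r of C3 was 0.62 with C1qa and 0.62 with C1qb (adjusted permutation p = 0.0406 for each). Rat G1_89 was highest in all 3 genes and G1_44 lowest in C3 at 307.6. With the first principal component taken out by regression, the r of C3 was 0.41 with C1qa and 0.11 with C1qb (permutation p = 0.134 and 0.724). Whether C3 differed from C1qb in its relation to C1qa was not tested.

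**Figure D4:**
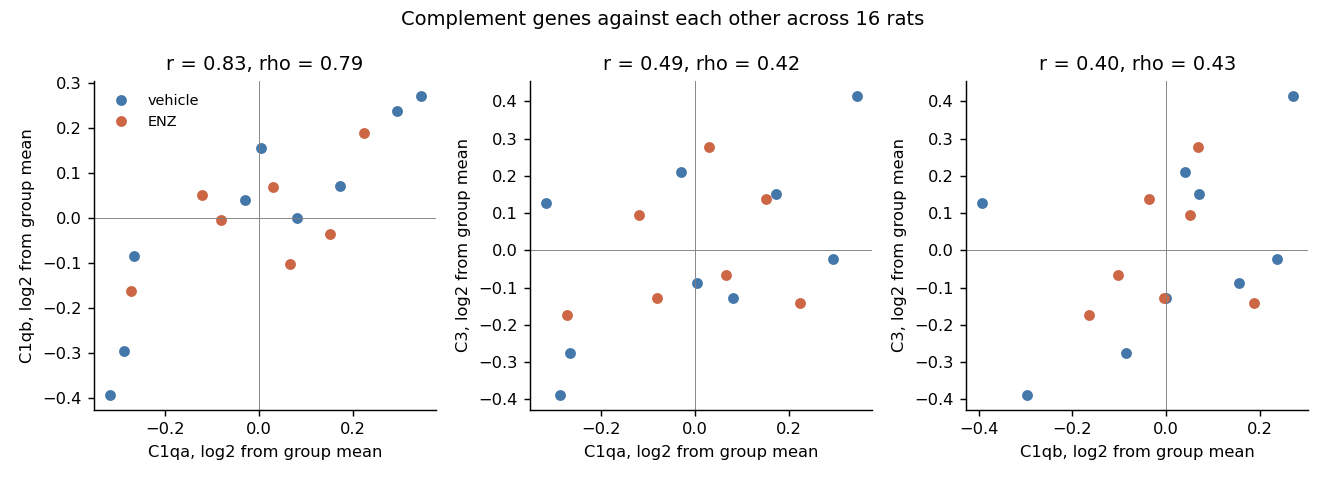
Log2 values of C1qa, C1qb and C3 against each other, each as the difference from the mean of its treatment group, 1 point per rat of the 16. The C1q pair lies along a line (r = 0.83), and C3 scatters more widely against C1qa (r = 0.49) and C1qb (r = 0.40).

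To place these values, the same r was taken between Serping1 and each of 13766 other genes with a median of at least 5 and a read in each of the 16 rats. These r share libraries and are a description. Their median was 0.0059, with 5% of genes under -0.54 and 5% above 0.52. C1qa, at -0.66, was lower than all but 1.75% of them, C1qb than all but 8.21% and C3 than all but 8.44%. The genes most like Serping1 were ENSRNOG00000017513 (r = 0.94, mean 643.9 normalized counts) and ENSRNOG00000016055 (r = 0.90, mean 230.2). The genes most opposed to it were ENSRNOG00000017136 (r = -0.88, mean 515.9) and ENSRNOG00000012228 (r = -0.87, mean 65.9). None of these 4 could be named.

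**Figure D5:**
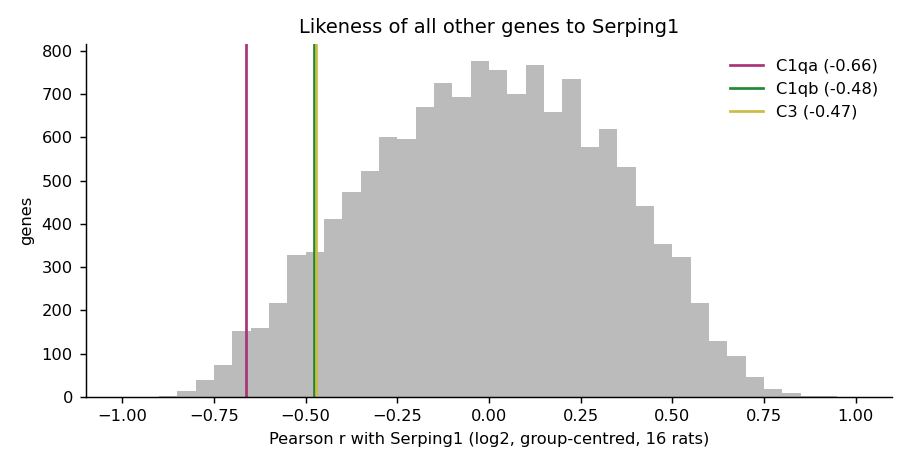
Number of genes (vertical axis) by their Pearson r with Serping1 over the 16 rats, log2 and centred by group, for 13766 genes, with lines at C1qa, C1qb and C3. All 3 lie on the negative side, C1qa at -0.66 in the lowest 1.75% of genes.

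Ranked the same way against C1qa, C1qb was number 80 of 13766 genes at r = 0.83, C3 number 1282 at 0.49 and Serping1 number 13577 at -0.66. Against C1qb, C1qa was number 21, and the 2 leading genes, which could not be named, had r of 0.90 and 0.88. The 2 leading genes had r of 0.95 and 0.94 with C1qa. Against C3, C1qa was number 730 and C1qb number 1364, and the 2 leading genes had r of 0.84 and 0.84.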

How the data were processed

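The authors trimmed reads with AlienTrimmer, aligned them to rn5 with STAR (2.4.0a) and counted them per gene with featureCounts (1.4.4). Each value deposited by the authors is a normalized count, a signal obtained by dividing a gene's reads by the size factor of its rat. Which annotation release and which strand setting they counted with is not given in the sources used here. In each rat 100% of values above 0 were whole multiples of 1 read, to within 0.01 read, so reads were recovered. Identifiers have no names in the table, so the lists of complement and marker genes were not analysed here.

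The members and lists were chosen with earlier results of these data known. The groups were compared in R (4.3.3) with limma (3.58.1), its variance trend on and log2(normalized count + 1) as the response, for genes whose median reached 5, with Benjamini-Hochberg adjustment over all genes, a fit checked on simulated data. The added 1 understates changes of low genes. Rat G1_80 was left out of the first fit for its depth. Correlations used group-centred log2 values and 100000 two-sided permutations within groups, or exact permutation under 10 rats (Python 3.11.15, numpy 2.4.6, scipy 1.17.1), with Benjamini-Hochberg adjustment over the 6 pairs. The study's list does not name its rats. The 13 rats (6 vehicle, 7 ENZ) were inferred as those over which renormalized mean counts came within 3.91e-08% of the 5 means the study lists (16 rats missed by 12.8%). The paper itself gives a study size of 7 per group and 2 samples removed as outliers. The inferred set matches neither statement. The genes named were the 4 members, Hba2 and the 2 genes most and least like Serping1. The genes most like C1qa and C3 are given without identifiers. The alternatives were other sets of rats, pseudocounts of 0.1 and 5, TMM and quantile normalization, other filters, DESeq2 (1.42.0), edgeR (4.0.16) and leaving out each rat. Covariates, and DESeq2 on other sets of rats, were added after seeing the data.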

Additional observations from a re-analysis of the deposited data

Results flagged for a closer look

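In the vehicle group of 10, rat G1_80 lay apart from the other rats in 3 of the 4 genes, with a gap to the next rat, as a share of the group's range on the log2 scale, of 0.749 for Serping1, 0.490 for C1qb and 0.661 for C3. The values were 0, 1 and 1 reads, in a library where 1 read is 103.4 normalized counts. Of 12 combinations of a gene and a group, 3 were singled out in this way, where chance would give about 0.6 if the combinations were independent. They are not independent, since the 9 vehicle rats are part of the 10 and all 3 come from rat G1_80. The comparison with 0.6 therefore shows nothing beyond that library. None of the 9 vehicle rats without G1_80, and none of the 7 ENZ rats, met the same limit in any of the 4 genes.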

How the results depend on the processing

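No analysis paired by rat was possible because the groups share no rat numbers. The paper describes pair housing and maze squads balanced for treatment. The sample labels give neither, so neither could be entered in the fits. The count of genes past an adjusted p of 0.05 was 0 under every alternative except DESeq2 on all 17 rats, which gave 5, none of them C1qa, C1qb or C3. With all 17 rats in limma, the ENZ difference of Serping1 moved from 0.70 to 1.12, that of C1qb turned from -0.014 to 0.089 and that of C3 from -0.080 to 0.12, while DESeq2 on those rats gave 0.67, -0.011 and -0.077. The r of Serping1 turned to 0.24 with C1qa, 0.66 with C1qb and 0.78 with C3, and the r of C3 passed the threshold at 0.62 with C1qa and 0.84 with C1qb. The C1qb difference ran from -0.063 to 0.020 when single rats were left out, with a positive sign without G1_107, G1_89, G1_98, G2_125 or G2_161. That of C1qa kept its sign under all 28 alternatives and that of C3 under 27. The r of Serping1 and C1qa stayed negative in the other 26 alternatives, from -0.72 (without G1_98) to -0.60 (without G1_89) when single rats were left out, and missed the threshold without G1_89, within vehicle (-0.68) and within ENZ (-0.66), where fewer rats enter. The r of C1qa and C1qb missed it within ENZ alone (0.59). Single rats moved the r of C1qa and C3 between 0.33 and 0.62, and that of C1qb and C3 between 0.22 and 0.62, and with the first principal component taken out the latter was 0.11. Depth limits Serping1 most, at 5 to 86 reads a rat.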
